A study of Mus musculus with 6 samples.

Results

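The dystrophin-associated complex was followed through 8 of its autosomal genes, *Dag1*, *Sgca*, *Sgcb*, *Sgcd*, *Sspn*, *Utrn*, *Sntb1* and *Dtna*, in Hi-C matrices of C2C12 cells. The genes were chosen by name as parts of the complex, and each was placed in every 500 kb bin of mm10 that its GENCODE gene body overlapped. They were 8 of 20366 autosomal protein-coding genes with data in all 3 conditions and took up 12 of 4727 such bins on 7 chromosomes. C2C12 cells are an established mouse line of muscle precursor cells that leave the cell cycle and fuse into multinucleated myotubes in differentiation medium. The 3 conditions were proliferating myoblasts (day 0), differentiated myotubes (day 3) and AraC-treated myotubes (day 7), which had been kept in 10 µg/ml AraC from day 3. Cultures of all 3 conditions had 72 h of proliferation up to day 0. Per the paper, myoblasts were plated at a lower density than the cultures for both kinds of myotubes. AraC (cytosine arabinoside) is a cytidine analogue that stops DNA replication and so removes cells that still divide. Each condition was represented by 2 Hi-C libraries, 6 in all, cut with HindIII, and the authors merged both libraries of a condition before they deposited a single matrix for it. A locus therefore had 1 value per condition, with no SD, no test and no p-value, and the differences below compare 3 matrices. AraC-treated myotubes differed from myotubes in day as well as in treatment, so time and drug cannot be told apart.

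In muscle fibres, the dystrophin-associated complex spans the sarcolemma and links the actin cytoskeleton to laminin in the basement membrane. Dystroglycan forms its core, the sarcoglycans with sarcospan form a subcomplex in the membrane, and dystrophin or its autosomal relative utrophin joins it to actin, with syntrophins and dystrobrevins as cytoplasmic adaptors. Loss of dystrophin or of a sarcoglycan causes muscular dystrophy, and myotubes build up the complex as they mature. None of the matrices measures transcripts, so the values below give the place of each gene in the folded genome and not its expression.

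Each matrix value relates a pair of bins by how well their normalized interaction profiles correlate, and is called the coefficient of that pair here. A principal component analysis of each chromosome gave every bin a PC1 value, where positive values mark the A (active) compartment and negative values the B (inactive) compartment. Over the 7 chromosomes of these genes, the SD of PC1 ran from 0.601 to 1.42 in myoblasts, from 1.27 to 2.68 in myotubes and from 1.03 to 2.29 in AraC-treated myotubes. PC1 was therefore divided by the SD of its chromosome in the same condition, and this scaled PC1, in units of 1 chromosome SD, was averaged over the bins of a gene. The sign was set by the density of protein-coding start sites, with which PC1 had a correlation of 0.243 to 0.687 on these chromosomes. The profile correlation of a gene is Pearson *r* between the coefficients of its bin in 2 conditions, taken over every other bin on the same chromosome. Where 3 levels follow each other they stand for myoblasts, myotubes and AraC-treated myotubes in that order, and 3 differences or profile correlations stand for myotubes against myoblasts, AraC-treated myotubes against myoblasts and AraC-treated myotubes against myotubes.

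Of the 8 genes, 7 lay in the A compartment in all 3 conditions, and the exception was *Sgcd*, which lay in B in all 3. Over all autosomal protein-coding genes, 59.9% lay in A in myoblasts, 58.1% in day 3 myotubes and 57.2% in AraC-treated myotubes. The median scaled PC1 of the 8 genes was 0.61 in myoblasts, 0.68 in day 3 myotubes and 0.65 in AraC-treated myotubes, beside 0.39, 0.36 and 0.41 over all autosomal genes. From myoblasts to myotubes, 0 of the 8 genes changed compartment, and 7.42% of all autosomal genes did. From myoblasts to AraC-treated myotubes the count was again 0 of 8, beside 9.51% of all genes, and from myotubes to AraC-treated myotubes it was 0 of 8, beside 4.43%. With a background this low, a count of 0 among 8 genes does not set them apart.

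**Figure D1:**
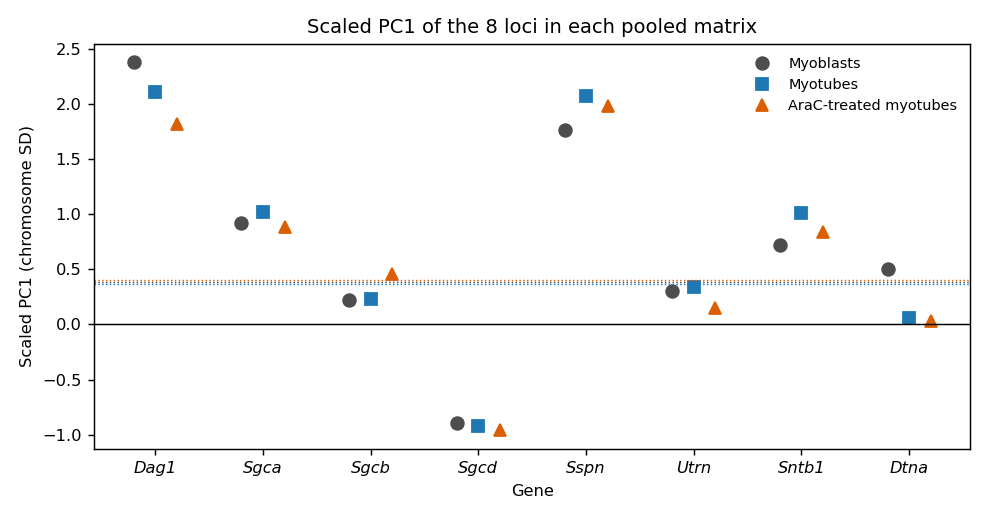
Scaled PC1 (vertical axis, in SD of the chromosome) of the 8 genes in myoblasts (circles), myotubes (squares) and AraC-treated myotubes (triangles), 1 pooled matrix each, with dotted lines at the median of all autosomal protein-coding genes. *Dag1* and *Sspn* sit highest, *Sgcd* is the only gene below 0, and *Dtna* comes down from 0.50 to 0.06 and 0.03.

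The promoters of 3 sarcoglycan genes are shown because their proteins share 1 subcomplex while the genes took up different places, *Sgca* at a scaled PC1 near 1, *Sgcb* closer to 0 and *Sgcd* in B. The sequences are RefSeq promoters of GRCm38.p6, 300 bases around the start site each, read 5′ to 3′ on the strand of the gene. Capitals mark E-boxes (CANNTG), the motif class bound by myogenic basic helix-loop-helix factors, which reads the same on both strands.
Sgca, chr11:94976278-94976577, minus strand: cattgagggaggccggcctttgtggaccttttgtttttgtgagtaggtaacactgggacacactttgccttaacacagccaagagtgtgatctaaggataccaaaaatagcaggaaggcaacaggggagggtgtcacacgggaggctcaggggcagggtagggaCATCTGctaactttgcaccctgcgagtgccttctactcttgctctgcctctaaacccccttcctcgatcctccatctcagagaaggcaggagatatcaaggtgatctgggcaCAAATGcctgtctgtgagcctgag
Sgcb, chr5:73647688-73647987, minus strand: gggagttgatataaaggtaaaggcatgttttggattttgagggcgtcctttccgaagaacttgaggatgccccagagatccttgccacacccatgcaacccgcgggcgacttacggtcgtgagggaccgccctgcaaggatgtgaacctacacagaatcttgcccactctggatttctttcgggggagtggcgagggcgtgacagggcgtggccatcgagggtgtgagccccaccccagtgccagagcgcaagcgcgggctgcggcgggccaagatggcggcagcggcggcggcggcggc
Sgcd, chr11:47379276-47379575, minus strand: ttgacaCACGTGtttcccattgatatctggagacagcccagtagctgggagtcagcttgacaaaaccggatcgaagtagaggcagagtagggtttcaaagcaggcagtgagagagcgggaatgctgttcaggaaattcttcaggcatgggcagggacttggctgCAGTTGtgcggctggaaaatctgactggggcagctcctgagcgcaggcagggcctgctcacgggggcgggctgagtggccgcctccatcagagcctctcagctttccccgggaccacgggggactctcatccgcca
The promoter of *Sgca* held 2 E-boxes, that of *Sgcd* held 2 and that of *Sgcb* held 0, while 72.3% of 32851 RefSeq promoters of this length held at least 1. None of the 3 held CAGCTG, a subset of CANNTG that 16.3% of promoters held. The count of CpG dinucleotides was 4 in *Sgca*, 24 in *Sgcb* and 12 in *Sgcd*, beside a median of 7. G and C made up 52.7% of the *Sgca* window, 62.7% of that of *Sgcb* and 59.0% of that of *Sgcd*, so base composition did not follow the order of compartments. A match describes these letters only, and a 500 kb bin does not resolve a promoter. Of the 8 genes, 6 had a RefSeq promoter in the table used, without *Sntb1* and *Dtna*.

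*Dag1* encodes dystroglycan, whose extracellular subunit binds laminin and whose membrane subunit binds dystrophin or utrophin. The gene (chr9:108204634-108263958, minus strand) lies within a single bin, chr9:108000001-108500000, and had the highest scaled PC1 of the 8 in myoblasts. Its scaled PC1 was 2.38 in myoblasts, 2.11 in day 3 myotubes and 1.82 in AraC-treated myotubes, which was above 92.1% of all autosomal genes in myoblasts and above 81.8% in AraC-treated myotubes. It came down at each step, by 0.27 from myoblasts to myotubes and by 0.29 from there to AraC-treated myotubes, but stayed far inside A. The profile correlation was 0.96 for myoblasts against myotubes, 0.91 for myoblasts against AraC-treated myotubes and 0.98 between both kinds of myotubes, so that its partners on chr 9 were nearly the same throughout.

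The change of *Dag1* from myoblasts to AraC-treated myotubes, −0.56, was the only one among the 8 genes beyond 0.5 SD in any pair of conditions. That count of 1 of 8 stands beside 14.6% of all autosomal genes, and the counts of 0 of 8 for the other pairs stand beside 7.72% between myoblasts and myotubes and 2.97% between both kinds of myotubes. Before division by the SD, PC1 of *Dag1* was 2.02, 3.51 and 2.64, highest in myotubes, while the SD of PC1 over chr 9 was 0.852, 1.67 and 1.45. The scaled change came to −0.41 with the SD of all autosomal bins and to −0.49 with odd partner bins only, short of 0.5 in both cases, and also to −0.26 with 1 bin added on each side. It was further from 0 with even partner bins, at −0.62, by the component from other chromosomes, at −0.61, and by the median absolute deviation, at −1.61. The bin holds the start sites of 21 protein-coding genes, where the median autosomal bin holds 2, and among them is *Lamb2*, which encodes the laminin beta 2 chain of the synaptic basement membrane. Because *Dag1* and *Lamb2* share a bin, these matrices give the same values for both. *Rhoa*, *Usp4* and *Gpx1* start in it as well, so no value here belongs to *Dag1* alone. Bins of 1.73 (−0.5 Mb) and 1.18 (+0.5 Mb) flanked it in myoblasts, and bins of opposite sign began 1 Mb away in all 3 conditions.

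The sarcoglycans are single-pass membrane proteins, and alpha (*Sgca*), beta (*Sgcb*) and delta (*Sgcd*) sarcoglycan are among the 8 genes. Their loci took up 3 different positions, and in none of them did the gene mean cross 0. *Sgca* (chr11:94962791-94976327, minus strand) had a scaled PC1 of 0.92 in myoblasts, 1.02 in day 3 myotubes and 0.88 in AraC-treated myotubes. Its profile correlations of 0.97, 0.95 and 0.99 were the highest of the 8 genes in all 3 pairs, and no difference between conditions was beyond 0.25 SD. *Sgca* sits just inside an A domain, since the bins from −3 to −1 Mb lay between −1.03 and −0.70 in the 3 conditions and those from +0.5 to +3 Mb between 1.21 and 1.88. Its bin, chr11:94500001-95000000, holds 15 start sites, among them that of *Col1a1*, the alpha 1 chain of type I collagen.

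*Sgcb* (chr5:73632749-73647790, minus strand) had the lowest profile correlation of the 8 genes between both kinds of myotubes, and *Dtna* was lower in both pairs with myoblasts. Its scaled PC1 was 0.22 in myoblasts, 0.24 in day 3 myotubes and 0.46 in AraC-treated myotubes, a rise in value of 0.23 between both kinds of myotubes that lay above 90.5% of all autosomal genes. Its profile correlation was 0.16 for myoblasts against myotubes, 0.08 for myoblasts against AraC-treated myotubes and 0.21 between both kinds of myotubes. The first of these was above only 5.01% of all autosomal genes, the next above 5.78% and the last above 1.99%. In the last pair the other 7 genes lay between 0.66 and 0.99. The bins beside *Sgcb* were in A as well, with 0.77, 0.94 and 0.84 in the bin 0.5 Mb on its proximal side and 0.46, 0.34 and 0.39 in the bin 0.5 Mb on its distal side. The profile correlation of the proximal bin was 0.87, 0.83 and 0.93, while the bin of *Sgcb* (chr5:73500001-74000000) stayed low under rank correlation, without bins within 2 Mb and with bins of all other autosomes, where it ran from 0.04 to 0.23 over the 3 pairs. Averaged with 1 bin added on each side, it came to 0.53, 0.45 and 0.57.

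*Sgcd* (chr11:46896253-47988969, minus strand) is the longest of the 8 genes at 1093 kb and covers parts of 3 bins. All 3 were in B in every condition. From the 3′ end to the start site, the bins had a scaled PC1 of −0.96, −0.80 and −0.91 in myoblasts, of −0.96, −0.83 and −0.97 in myotubes, and of −0.98, −0.89 and −1.01 in AraC-treated myotubes. The gene mean was −0.89, −0.92 and −0.96, and only 5.55% of all autosomal genes lay lower in myotubes. Profile correlations of 0.94, 0.93 and 0.98 placed *Sgcd* among the stable loci. The middle bin, chr11:47000001-47500000, holds no other protein-coding start site. The GENCODE start site lies in the next bin, chr11:47500001-48000000, and the RefSeq promoter shown above lies in the middle one, but both bins were in B. The nearest A bin was 2.5 Mb from the 3′ end bin in myoblasts and 5 Mb in both kinds of myotubes. From the start-site bin it was 3.5 Mb in myoblasts and 4 Mb in both kinds of myotubes. The A bin in myoblasts was close to 0, with a scaled PC1 of 0.06, −0.20 and −0.40 in the 3 conditions.

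*Sspn* encodes sarcospan, a tetraspan membrane protein that binds the sarcoglycans. The gene (chr6:145931641-145965223, plus strand) had a scaled PC1 of 1.76 in myoblasts, 2.07 in day 3 myotubes and 1.98 in AraC-treated myotubes. Its gain of 0.31 from myoblasts to myotubes was the largest of the 8 and lay above 89.4% of all autosomal genes, yet stayed under 0.5. The size depended on the scale, with 0.17 by the SD of all autosomal bins, below the 0.37 of *Sntb1*, and 1.51 by the median absolute deviation of the chromosome. On the latter scale the difference between both kinds of myotubes also turned from −0.09 to 0.95. The profile correlation was 0.93, 0.90 and 0.97. The distal side of the locus moved much further than the gene itself. At +1.5 Mb the scaled PC1 was 0.59, 1.64 and 2.03, and at +2.5 Mb it was −0.09, 0.96 and 1.77, where the profile correlation between myoblasts and myotubes was −0.24. On the proximal side, the bin at −0.5 Mb had 1.43, 1.45 and 1.40. The bins between, at +0.5 and +1 Mb, had 1.97, 2.31 and 2.14 and 1.74, 2.42 and 2.44. *Bhlhe41*, a circadian basic helix-loop-helix repressor, and *Rassf8* start in the same bin, chr6:145500001-146000000.

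**Figure D2:**
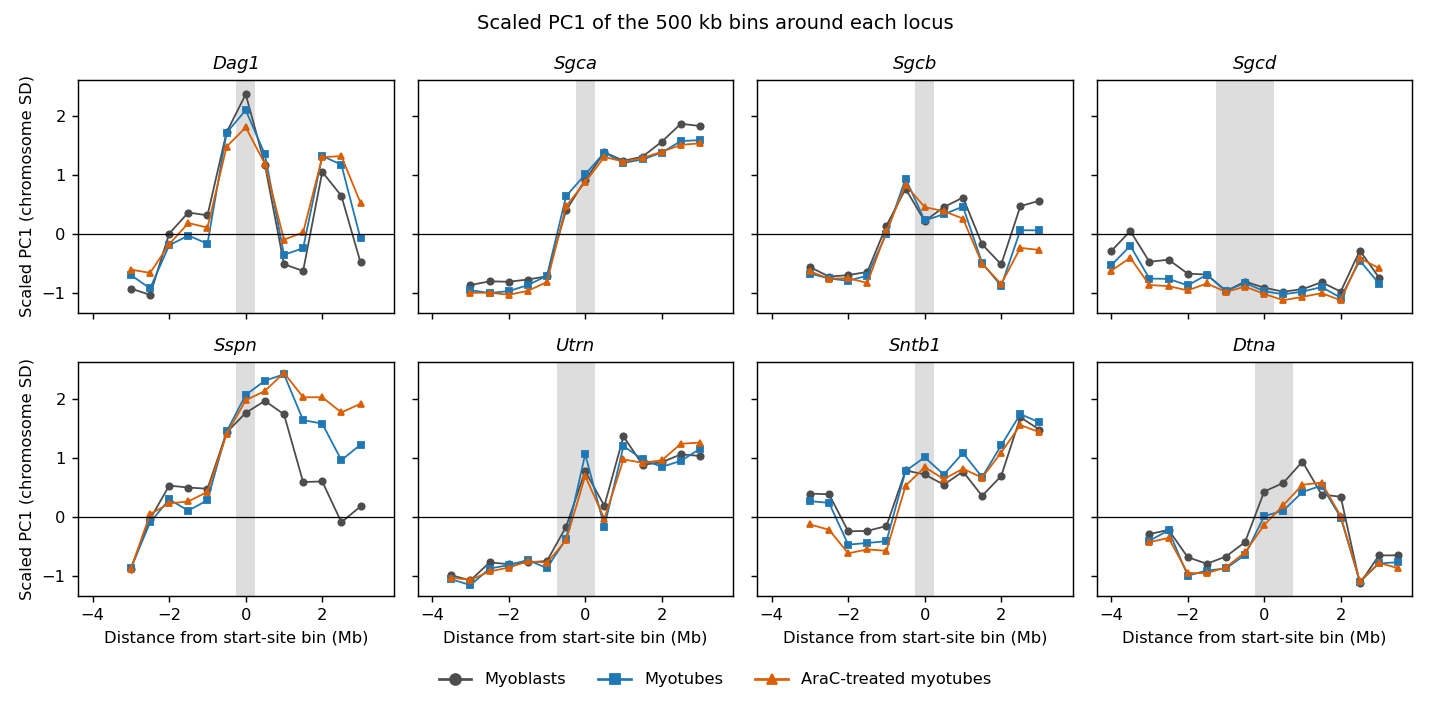
Scaled PC1 (vertical axis, in SD of the chromosome) of the 500 kb bins around each gene against distance from the bin of its start site (horizontal axis, Mb, towards higher positions to the right), for myoblasts (circles), myotubes (squares) and AraC-treated myotubes (triangles), with the gene body bins in grey. The lines nearly coincide for *Sgca* and within the body of *Sgcd*. They separate on the distal side of *Sspn* and, less far, in other places. These include the bin at +3 Mb of *Dag1* (−0.48, −0.07 and 0.53), that at +3 Mb of *Sgcb* (0.57, 0.07 and −0.27) and the bins from −4 to −2.5 Mb of *Sgcd*. The lines cross 0 inside *Utrn* and, in AraC-treated myotubes, inside *Dtna*.

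*Utrn* encodes utrophin, which resembles dystrophin in domain order and stands in for it at the neuromuscular junction and in regenerating fibres. The gene (chr10:12382188-12869365, minus strand) spans a compartment edge. Its start-site bin, chr10:12500001-13000000, which holds 75.8% of the gene, lay in A with 0.78 in myoblasts, 1.06 in day 3 myotubes and 0.69 in AraC-treated myotubes. Its 3′ bin, chr10:12000001-12500000, lay in B with −0.17, −0.38 and −0.40. The start-site bin exceeded the 3′ bin by 0.95, 1.44 and 1.09, so the step inside *Utrn* was present in all 3 matrices. Averaged over the gene, scaled PC1 was 0.30, 0.34 and 0.15, a mean that describes neither bin. The start-site bin had profile correlations of 0.79, 0.77 and 0.92 and the 3′ bin had 0.54, 0.45 and 0.91, so that for each of them both kinds of myotubes resembled each other more than either resembled myoblasts. The 3′ bin holds no protein-coding start site, and the start-site bin also holds that of *Stx11*, a syntaxin of immune cells. With uncentred columns the gene mean changed sign, from 0.24 in myoblasts to −0.12 in AraC-treated myotubes.

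*Sntb1* encodes beta 1 syntrophin, a PDZ domain adaptor that recruits signalling proteins to the complex. The gene (chr15:55636388-55906949, minus strand) had a scaled PC1 of 0.72 in myoblasts, 1.01 in day 3 myotubes and 0.84 in AraC-treated myotubes. It was 0.29 higher in myotubes than in myoblasts, above 88.7% of all autosomal genes, and 0.17 lower again in AraC-treated myotubes. The profile correlation was 0.89, 0.86 and 0.96, close to the medians over all autosomal genes of 0.90, 0.86 and 0.96. The edge to B lay 1 Mb away on the proximal side, where the bin had −0.16, −0.42 and −0.58. *Mrpl13*, a mitochondrial ribosomal protein gene, and *Mtbp*, whose protein binds MDM2, start in the same bin.

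*Dtna* encodes alpha dystrobrevin, a cytoplasmic relative of dystrophin that binds syntrophins. The gene (chr18:23415135-23659715, plus strand) had the largest difference between myoblasts and myotubes of the 8 genes on this scale, but not with the SD of all autosomal bins, the component from other chromosomes, uncentred columns or the median absolute deviation, where its difference was −0.31, −0.32, −0.30 and −0.52. Its scaled PC1 was 0.50 in myoblasts, 0.06 in day 3 myotubes and 0.03 in AraC-treated myotubes. The difference of −0.44 from myoblasts to myotubes was lower than that of all but 5.18% of autosomal genes, and the difference of −0.47 to AraC-treated myotubes was lower than that of all but 8.68%. Between both kinds of myotubes it differed by only −0.03. The start-site bin, chr18:23000001-23500000, had 0.43, 0.01 and −0.14, and the next bin, chr18:23500001-24000000, had 0.57, 0.10 and 0.20.

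The start-site bin of *Dtna* was the only 1 of the 12 bins that changed sign, from A in myoblasts and myotubes to B in AraC-treated myotubes. Over all autosomal bins, 10.2% changed compartment between myoblasts and AraC-treated myotubes, 5.11% between both kinds of myotubes and 7.32% between myoblasts and myotubes, where the count was 0 of 12. It was also the only bin with a profile correlation below 0, with −0.03 for myotubes and −0.26 for AraC-treated myotubes, both against myoblasts. This was 1 of 12 bins in each pair, beside 3.28% and 5.8% of all autosomal bins, while between both kinds of myotubes it was 0 of 12, beside 1.16%, with 0.78 for this bin. Per gene, 0 of 8 had a profile correlation below 0 in any pair, beside 3.02%, 4.49% and 0.584% of autosomal genes. The mean over both bins of *Dtna* was 0.08, 0.03 and 0.66. A component computed from other chromosomes put the gene at 0.24 in myoblasts, −0.08 in day 3 myotubes and −0.08 in AraC-treated myotubes, so that its sign in myotubes depended on the partner bins used. The locus lies at the proximal end of a short A stretch, with −0.43, −0.65 and −0.60 in the bin before it and 0.94, 0.42 and 0.54 in the bin at +1 Mb, where the value in myoblasts was again the highest.

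**Figure D3:**
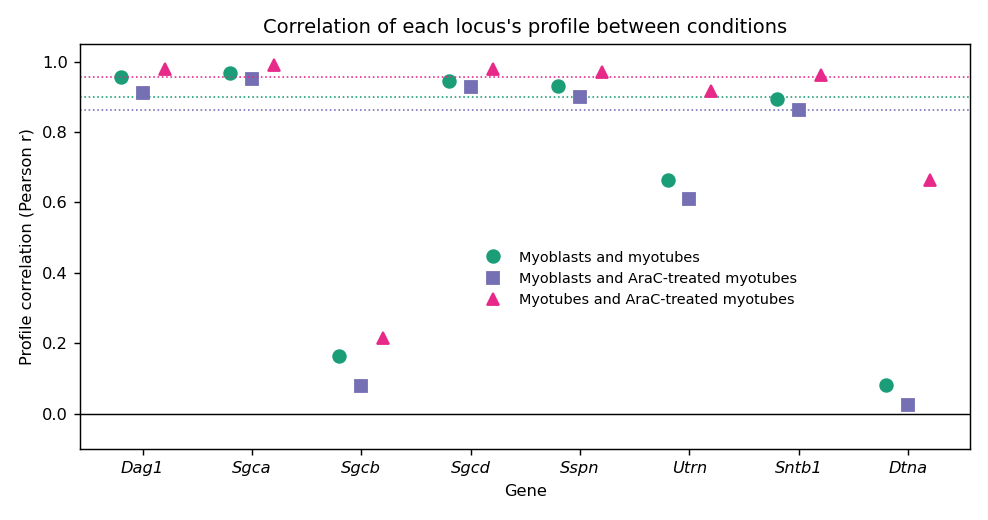
Profile correlation (vertical axis, Pearson *r*) of each gene between myoblasts and myotubes (circles), myoblasts and AraC-treated myotubes (squares) and both kinds of myotubes (triangles), with dotted lines at the medians of all autosomal protein-coding genes. *Sgcb* is low in all 3 pairs, and *Dtna* is low in both pairs with myoblasts and at 0.66 between both kinds of myotubes.

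Profile correlation was low where PC1 was near 0, in these genes as over all autosomal bins. Among bins whose absolute scaled PC1 averaged under 0.5 in myoblasts and myotubes, the median profile correlation was 0.56 over 1385 autosomal bins, and among the 3344 bins at 0.5 or more it was 0.91. The 12 bins of the 8 genes fell 4 to 8 in these classes, with medians of 0.18 and 0.94. Between myoblasts and AraC-treated myotubes, the medians were 0.44 and 0.87 over all autosomal bins and 0.20 and 0.92 for the same split of 4 and 8 bins. Between both kinds of myotubes they were 0.80 and 0.96 over all bins and 0.66 and 0.98 for the bins of the 8 genes. *Sgcb*, both bins of *Dtna* and the 3′ bin of *Utrn* made up the 4 low bins. *Sgcb*, with 0.21 between both kinds of myotubes, lay under the median but above the 5th percentile of 0.05 of that class. The median profile correlation of the 8 genes was 0.91, 0.88 and 0.97, beside 0.90, 0.86 and 0.96 over all autosomal genes.

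The other side of the matrices, coefficients between loci on different chromosomes, was read for the 27 pairs that the 8 genes form on different chromosomes. *Dag1*, *Sgca*, *Sspn* and *Sntb1* had positive coefficients with each other in all 3 conditions. The pair of *Dag1* and *Sgca* was highest, with 0.193 in myoblasts, 0.316 in day 3 myotubes and 0.247 in AraC-treated myotubes. *Dag1* and *Sspn* had 0.175, 0.293 and 0.201, and *Sspn* and *Sntb1* had 0.0450, 0.146 and 0.156. *Sgcd* had negative coefficients with *Dag1*, of −0.0985, −0.173 and −0.134, and with *Sspn*, of −0.0778, −0.112 and −0.0986. *Utrn* and *Dtna* had gene means in A, yet their coefficients with *Sgcd* were above 0 in all 3 conditions. They were 0.0282, 0.0105 and 0.0114 for *Utrn* and 0.0248, 0.0293 and 0.0334 for *Dtna*. Each is a mean over all bins of both genes. The 3′ bin of *Utrn* and, in AraC-treated myotubes, the start-site bin of *Dtna* lay in B, while in myoblasts both bins of *Dtna* lay in A. By the component from other chromosomes, *Dtna* was at 0.24 in myoblasts and at −0.08 in both kinds of myotubes. *Sgcb*, a single bin in A in all 3 conditions, had 0.0171, 0.00948 and −0.016 with *Sgcd*. The part of B bins in these signs was not tested. The sign of a pair thus did not always follow the gene means of PC1, and pairs of single bins are not given here. Over all 27 pairs, the median was 0.0171, 0.0105 and 0.0169, beside 0.00574, 0.0160 and 0.0101 over all pairs of autosomal bins on different chromosomes, whose SD was 0.0446, 0.0889 and 0.0731. Single pairs ran from −2.21 SD, for *Dag1* and *Sgcd*, to 4.33 SD, for *Dag1* and *Sgca*, both in myoblasts.

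**Figure D4:**
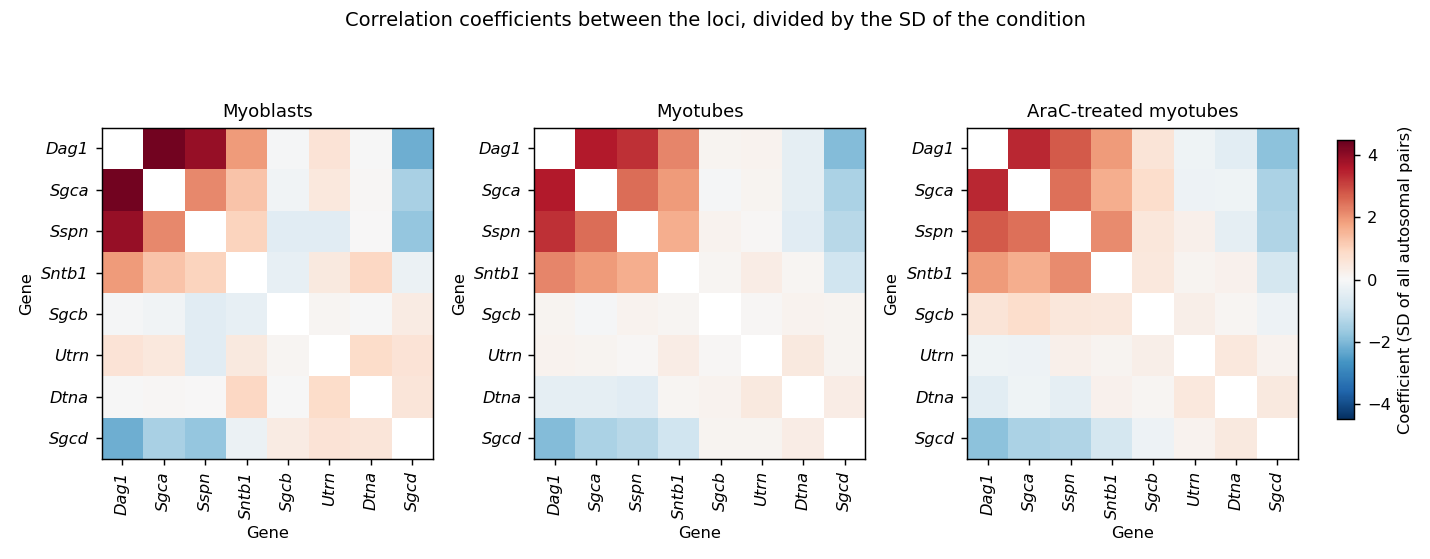
Correlation coefficients between the 8 loci in each condition, divided by the SD of all coefficients between autosomal bins on different chromosomes (colour scale, red above 0 and blue below). The order of the genes was set by hand, with *Sgcd* last, and does not follow scaled PC1 strictly. *Sgca* and *Sgcd* are on the same chromosome. The red block of *Dag1*, *Sgca*, *Sspn* and *Sntb1* appears in all 3 conditions, with 4.33 SD for *Dag1* and *Sgca* in myoblasts, and *Sgcd* is blue against these 4 loci but faintly red against *Utrn* and *Dtna*. Against *Sgcb*, it is faintly red in myoblasts and myotubes and faintly blue in AraC-treated myotubes.

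For each gene, the 2 bins of other autosomes with the highest mean coefficient over the 3 conditions were looked up. For *Dag1* the first was chr15:76000001-76500000, with 0.400, 0.585 and 0.454, a bin that holds 25 start sites and among them *Plec*, which encodes plectin, a cytolinker that binds dystroglycan. The next was chr10:80500001-81000000, with 0.426, 0.559 and 0.447 and 26 start sites. Both partner bins are gene-dense and lay above 2 on scaled PC1 in every condition. *Sspn* and *Sntb1*, on chr 6 and chr 15, shared the bin chr16:92500001-93000000, whose single protein-coding start site is that of *Runx1*, a transcription factor of blood cells and regenerating muscle. The coefficient of this bin was 0.190, 0.348 and 0.278 with *Sspn* and 0.0901, 0.269 and 0.206 with *Sntb1*, and it was the first partner of neither. The first of *Sspn* was chr15:99500001-100000000, with 0.209, 0.357 and 0.257 and 14 start sites. That of *Sntb1* was chr16:92000001-92500000, beside the bin of *Runx1*, with 0.089, 0.267 and 0.212 and 9 start sites. The partner bins of *Sgca* were chr19:6000001-6500000, with 0.219, 0.399 and 0.319, and chr15:81000001-81500000, with 0.229, 0.402 and 0.304. The former holds 29 start sites, among them that of *Pygm*, the muscle glycogen phosphorylase. The latter holds 7, among them that of *Mrtfa*, a coactivator of serum response factor. Both bins lay above 2 on scaled PC1 in every condition. *Sgcd* had B bins as partners, those of *Sorcs3* with 0.0802, 0.128 and 0.109 and of *Lrfn2* with 0.0753, 0.132 and 0.0996. The best partners of *Sgcb*, *Utrn* and *Dtna* reached means of only 0.0445, 0.0612 and 0.0704, against 0.480 for *Dag1*. Both partner bins of *Dtna* lay in B in all 3 conditions, although the gene mean of *Dtna* was in A, and the first of them, the bin of *Kank1*, had a scaled PC1 of −0.36, −0.54 and −0.43. Each partner was picked as the highest over all bins of the other autosomes, so these values describe extremes.

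Beyond the 8 genes, 30 other genes of the pathway were listed, of which 29 are autosomal. *Dmd*, which encodes dystrophin, lies on chr X (chrX:82948870-85206141) over 6 bins. Its scaled PC1 was 0.11 in myoblasts, 0.04 in day 3 myotubes and 0.82 in AraC-treated myotubes. The first component of this chromosome held only 5.12%, 7.66% and 3.09% of the variance, and its correlation between myoblasts and myotubes was 0.0588, so no compartment was read for *Dmd*.

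Of the 29 autosomal pathway genes, 2 changed compartment from myoblasts to myotubes, 4 from myoblasts to AraC-treated myotubes and 2 between both kinds of myotubes, beside 7.42%, 9.51% and 4.43% of all autosomal genes. Beyond 0.5 SD were 2, 9 and 1 genes, beside 7.72%, 14.6% and 2.97% of all, with 4 higher and 5 lower in AraC-treated myotubes than in myoblasts. Among the 5 lower genes was *Lamb2*, which shares the bin of *Dag1* and so repeats its change of −0.56. Profile correlation was below 0 in 2, 3 and 0 genes, beside 3.02%, 4.49% and 0.584% of all. The median change of the list was −0.07, −0.18 and 0.00177, beside −0.01, −0.04 and −0.03 over all autosomal genes. Genes of the list thus moved in both directions.

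Among the other sarcoglycans, *Sgce* (epsilon), an imprinted gene expressed outside muscle as well, went from 0.23 in A to −0.24 and −0.20 in B. *Sgcz* (zeta) stayed in B with −0.44, −0.47 and −0.46. *Sgca*, *Sgcb*, *Sgcd* and *Sgcz* had differences under 0.25 SD in every pair, so *Sgce* was the only sarcoglycan gene reported here that went beyond it.

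Among the other syntrophins and dystrobrevins, *Dtnb*, the beta dystrobrevin gene, went the opposite way to *Dtna*, with 0.08, 0.44 and 0.74, and its profile correlation was 0.30, −0.07 and 0.71. *Sntb2* held 2.16, 2.14 and 2.14. *Sntg1* and *Sntg2*, whose proteins are found mainly in brain, stayed in B.

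Among membrane and signalling partners, *Nos1*, the neuronal nitric oxide synthase that syntrophin anchors at the sarcolemma, had −1.17, −0.94 and −0.60, and *Cav3*, the muscle caveolin, had −1.16, −0.81 and −0.68. Both loci remained in B although their scaled values came closer to 0. Before division by the SD, PC1 was −1.13, −1.62 and −0.831 at *Nos1* and −0.927, −1.14 and −0.834 at *Cav3*, lowest in myotubes for both. *Dysf*, which encodes the membrane repair protein dysferlin, had 1.93, 2.35 and 2.47, while *Plec* had 2.64, 2.25 and 2.08.

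Of the 7 ligand genes, *Lamb1*, the laminin beta 1 chain, moved furthest, from 0.68 in myoblasts to 0.19 and −0.35, with profile correlations of −0.15, −0.57 and 0.59. *Agrn*, whose protein agrin clusters acetylcholine receptors, went from −0.27 and −0.13 to 0.07. *Lama2*, the laminin chain that dystroglycan binds in muscle, held 0.87, 0.88 and 0.93.

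Of the 10 genes for enzymes that glycosylate dystroglycan, 9 lay in A in myoblasts and 8 in each kind of myotubes. *B3galnt2* went from 0.58 to −0.38 and −0.40 and had the lowest profile correlations of the list together with *Lamb1*, −0.54 and −0.57 with myoblasts, against 0.89 between both kinds of myotubes. The sign of PC1 on its chromosome, chr 13, rested on correlations with start-site density of only 0.0535 to 0.122, but PC1 of chr 13 in myoblasts and myotubes had a correlation of 0.948, so the sign of *B3galnt2* relative to its chromosome differed. *Pomt2*, part of the enzyme that starts the chain, had 0.49, 1.02 and 1.25, and *Pomk*, a kinase of the chain, had 1.69, 1.43 and 1.00.

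**Figure D5:**
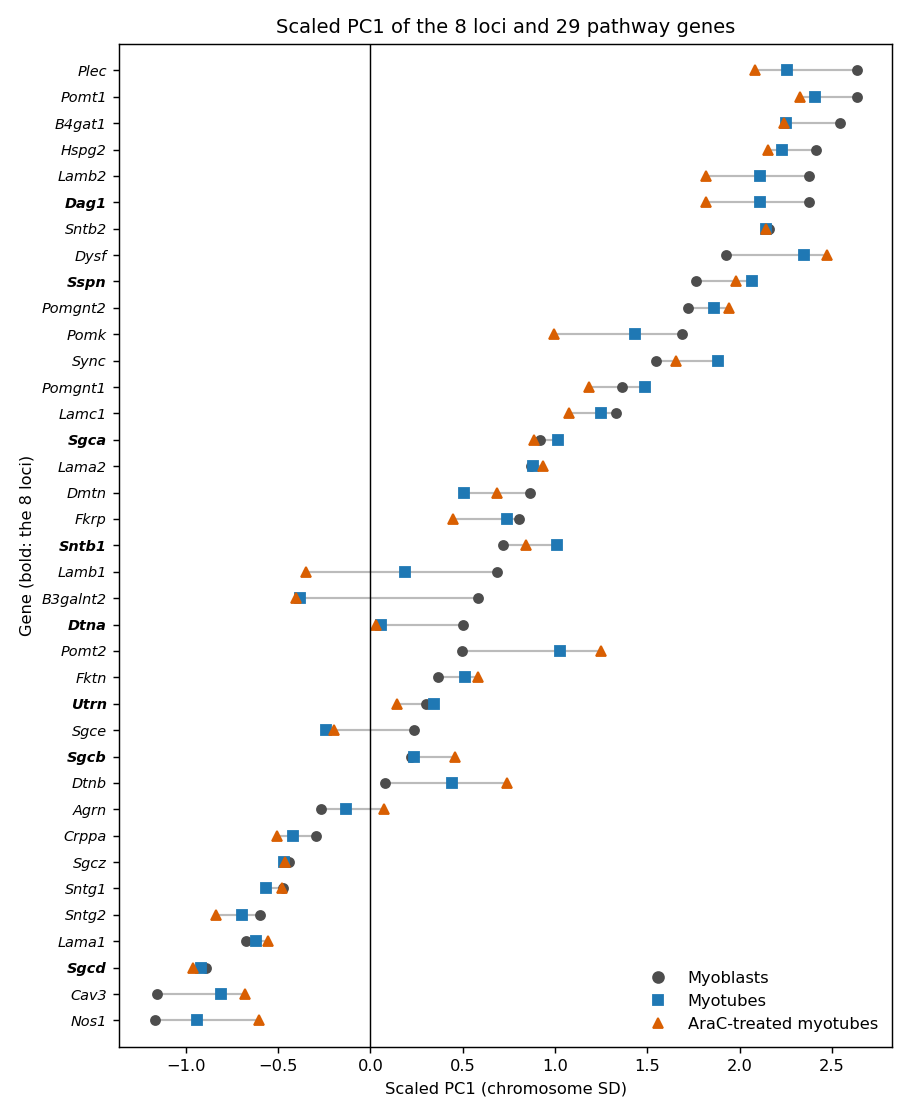
Scaled PC1 (horizontal axis, in SD of the chromosome) of the 8 genes (bold) and the 29 autosomal pathway genes, ordered by the value in myoblasts (circles) and shown with myotubes (squares) and AraC-treated myotubes (triangles). The longest grey lines belong to *Lamb1* and *B3galnt2*, and those of *Sgcd* and *Sgca* are among the short ones.

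As a muscle gene set of the same size, the 8 troponin genes, which encode the calcium switch of the thin filament, were set beside these loci. All 8 troponin genes lay in A in each condition, with medians of 1.33, 1.62 and 1.92, where the 8 loci of the complex had 0.61, 0.68 and 0.65. Troponin genes partly share bins, since *Tnnt1* and *Tnni3* lie in the same bin and so do *Tnni1* and *Tnnt2*. *Tnnt3* also reaches into the bin of *Tnni2*, so these genes stand for fewer than 8 separate loci. The spread of the complex, from −0.96 to 1.98 in AraC-treated myotubes, reached into B, while the troponin genes ran from 0.18 to 2.45. No test of this difference was made.

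The bins also differed in what a Hi-C library can read in them. The bins of *Dag1* and *Sgca* held 116 and 91 HindIII sites and 47.8% and 48.1% G and C, and the other 10 bins held 138 to 189 sites, where the median autosomal bin had 162 sites and 41.7% G and C. *Dag1* and *Sgca*, the loci with the fewest cut sites, also formed the pair with the highest coefficient, and the part of site density in this was not tested. The HindIII fragment that holds the GENCODE start site was 3266 bp long at *Dag1* and 12636 bp at *Sgca*, and the gene body held 1 site in *Sgca* and 381 in *Sgcd*. Gene length ran from 13.5 kb for *Sgca* to 1093 kb for *Sgcd*, while the median autosomal protein-coding gene is 17.6 kb long, so that a 500 kb bin exceeds every gene here but *Sgcd*.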

How the data were processed

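Hi-C was made from C2C12 cells in 6 libraries, and per the labels and the paper, the authors used Bowtie for mapping, HiCUP for filtering to unique di-tags and HOMER for matrices of the merged replicates. The deposited values are a score, the correlation coefficient of 2 normalized interaction profiles at 500 kb, with 1 matrix per condition, so the depth behind a value and the spread between libraries are not in it. Per the paper, replicate matrices correlated less well in myoblasts than in either kind of myotubes, and merged di-tags were fewest in AraC-treated myotubes. How far this lowered the profile correlations with myoblasts was not tested. The matrices hold 5455 bins of mm10, with data in 5022 (myoblasts), 5030 (myotubes) and 5035 (AraC-treated myotubes). PC1 was the score of a bin on the first component of its chromosome, with columns centred and not scaled. GENCODE vM21 gave gene bodies, and a change was called beyond 0.5 chromosome SD or by a change of sign. The 8 genes and the lists were chosen with earlier results of these data known. Some genes of the pathway list are not reported here and were left out of its counts. Named pathway genes are those that changed sign, had *r* below 0 or changed beyond 0.5 SD in any pair, with *Dmd*, and *Cav3*, *Sgcz*, *Sntb2*, *Sntg1*, *Sntg2* and *Lama2* were added after their values were seen. Genes named as sharing a bin with a locus, or as lying in a partner bin, were picked by hand from those that start there. The alternatives covered partner bins, centring, gene placement, scaling, thresholds and rank correlation, and odd and even partner bins for the profile were added after the data were seen. The steps were tested on simulated data. Software was Python 3.11.15 with SciPy 1.17.1, NumPy 2.4.6 and Matplotlib 3.10.9.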

Additional observations from a re-analysis of the deposited data

How the results depend on the processing

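No paired analysis was possible because both libraries of a condition were merged before deposit, and for the same reason no library could be left out. A value was taken as moved when it differed by more than the largest gap between odd and even partner bins among the 8 genes. Of 138 values over the list, 108 kept within that limit or within 1.5 times the count, and of 384 values of single loci 322 did. Odd and even partner bins set the limit, so single loci could hardly pass it under these settings. For a gene within a single bin, the start-site bin and the bin of largest overlap are the main setting itself. Part of the tally of single loci was thus fixed in advance, and it does not measure robustness. The only called change among the 8 genes, that of *Dag1* from myoblasts to AraC-treated myotubes, kept its direction in every alternative. Smaller differences did not all do so. That of *Utrn* from myoblasts to myotubes went from 0.04 to −0.16 with uncentred columns. Where a value moved, the cause was not tested unless the setting itself gives it.

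Counts of genes that changed compartment were 0 in each pair. Between myoblasts and AraC-treated myotubes they became 1 by the component from other chromosomes (*Dtna*), 2 with uncentred columns, 1 with the start-site bin only (*Dtna*) and 2 with 1 bin added on each side (*Dtna* and *Utrn*). Between both kinds of myotubes they became 1 with uncentred columns (*Utrn*) and 1 with the start-site bin only (*Dtna*). Between myoblasts and myotubes they became 1 by the component from other chromosomes, 1 with uncentred columns and 2 with 1 bin added on each side. Genes beyond 0.5 SD between myoblasts and AraC-treated myotubes numbered 1, which became 0 with odd partner bins, with 1 bin added on each side, with the SD of all autosomal bins and beyond 1 SD, 2 with the start-site bin only and beyond 0.25 SD, and 3 with the median absolute deviation. Between both kinds of myotubes, 0 became 2 with the median absolute deviation and 1 beyond 0.25 SD, and between myoblasts and myotubes 0 became 3 and 4. Shares of all autosomal genes are not given for these alternatives, so the counts cannot be set against a background. In the latter pair, the SD of the scaled change over all autosomal genes was 0.274, more than the lower threshold of 0.25.

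Genes with *r* below 0 between myoblasts and AraC-treated myotubes numbered 0, which became 1 without bins within 2 Mb, 1 with the start-site bin only and 2 at *r* below 0.2. Between myoblasts and myotubes, 0 became 1 with the start-site bin only and 2 at *r* below 0.2. For these settings, too, no share of all autosomal genes is given. Rank correlation lowered the median profile correlation between myoblasts and AraC-treated myotubes from 0.88 to 0.79, and uncentred columns moved the median change between both kinds of myotubes from −0.111 to −0.0655. Divided by the SD of all coefficients, the medians between the loci were 0.38 in myoblasts, 0.12 in day 3 myotubes and 0.23 in AraC-treated myotubes.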
